A study of Homo sapiens and Mus musculus with 74 samples.

Results

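The ionotropic glutamate receptor subunits described here are 9 of the 22484 genes with a coding transcript in the mouse count table. They are the AMPA receptor subunits Gria1, Gria2, Gria3 and Gria4, the NMDA receptor subunits Grin1, Grin2a and Grin2b, and the kainate receptor subunits Grik2 and Grik5. The rule lists the members by name and uses none of their values, though it was written with earlier results of these data known. Each was read from 1 transcript of the GENCODE M21 annotation (GRCm38), the one with the longest protein. The remaining 9 ionotropic subunit genes served as a comparison list.

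Ionotropic glutamate receptors are cation channels that open when glutamate binds, and they carry most fast excitatory transmission between neurons of the brain. AMPA receptors give the fast current, NMDA receptors admit calcium when glutamate binds while the membrane is depolarised, and kainate receptors act on both sides of the synapse. Each channel is a tetramer assembled from subunits of its own class, so the supply of one subunit relative to its partners bears on which channels can form.

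The data were RNA-seq and Ribo-seq read counts per transcript from brain and kidney of WT mice and of Rpl41 KO mice, with 3 libraries for each combination of genotype, tissue and assay. Ribo-seq sequences the ribosome-protected fragments (RPFs) left after RNase I digestion, and translation efficiency (TE) is the RPF level relative to the RNA level. The KO mice (Rpl41-/-) were derived from C57BL/6J zygotes by CRISPR-Cas9 deletion of the Rpl41 coding sequence. Tissues came from males aged 10 weeks. Rpl41 encodes a very small ribosomal protein that the study places in the 40S subunit, and the study asked how its loss affects translation, in particular of long proteins. The labels give the tissue as brain or kidney with no region, number the libraries 1 to 3, and tie no number to an animal, so the p-values below measure the spread between these libraries, which may in part be technical.

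Summed over transcripts, the brain libraries held 84433838 to 123745890 counts (RNA-seq) and 9498663 to 35881929 (Ribo-seq). The kidney libraries held 44998381 to 55077048 (RNA-seq) and 11036643 to 42452425 (Ribo-seq), and a read that overlaps several isoforms can enter each of them. Rpl41 itself had 8981 to 12199 reads in WT brain RNA-seq and 6 to 12 in KO brain RNA-seq, as the labels state. Tissue labels matched their markers. The 6 neuron markers were Rbfox3, Snap25, Syt1, Tubb3, Map2 and Syn1. They summed to 1298 to 1819 CPM (counts per 1e6 of the scaled library total) in the brain RNA-seq libraries and to 0.633 to 2.01 CPM in the kidney RNA-seq libraries. The 5 kidney tubule markers summed to 0.355 to 0.562 CPM in brain RNA-seq, with Umod at 0. Sums in the other tissue were higher in Ribo-seq. There the neuron markers summed to 5.66 to 8.47 CPM in kidney and the tubule markers to 1.76 to 10.7 CPM in brain, and the cause was not tested.

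All 9 members encode long proteins, from 883 residues (Gria2) to 1482 residues (Grin2b), against a median of 381 residues over the 22484 genes. Only 4.26% of genes had a longer protein than Grin2b and 13.8% a longer one than Gria2. A single stretch of 9 residues is identical in all 9 proteins. It is encoded by 27 bases, printed here for 8 of the genes, taken from the GRCm38 genome and lying within 1 coding exon in each gene, at the end of a membrane segment that lines the channel. The stretches are shown because they mark the family and show how far its members differ at their most conserved point, and hence how reads can be told apart. Capitals mark the 12 positions that differ among the 9 genes, and the other 15 positions are the same in all of them.
Gria1, chr11:57283571-57283597, plus strand: TCAtaCacAgcCaaCCtGgcTgcCttC
Gria2, chr3:80702569-80702595, minus strand: TCCtaCacGgcTaaCTtAgcTgcCttC
Gria3, chrX:41620858-41620884, plus strand: TCCtaCacTgcAaaCCtTgcTgcTttC
Gria4, chr9:4462017-4462043, minus strand: TCCtaCacTgcTaaTCtGgcTgcAttC
Grin1, chr2:25297199-25297225, minus strand: TCCtaCacTgcCaaCCtGgcAgcCttC
Grin2a, chr16:9653447-9653473, minus strand: AGTtaCacAgcCaaCCtGgcTgcCttC
Grik2, chr10:49240690-49240716, minus strand: TCGtaTacCgcTaaCCtAgcCgcCttT
Grik5, chr7:25015919-25015945, minus strand: TCCtaCacGgcCaaCCtGgcTgcCttC

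Even there the other members differ from Gria2 at 3 (Grik5) to 7 (Grin2a) of the 27 bases. Over the whole coding sequences, at most 1.18% of the 28-base words of any member other than Grin2a occur in a transcript of another gene. Few 28-base reads from these coding sequences would thus match another annotated transcript exactly, while shorter reads and reads with mismatches were not examined. Grin2a is the exception, since 49.0% of its coding 28-base words recur in the processed pseudogene Gm7328, and multimapping reads were kept. Gm7328 was listed with 184 to 855 reads in the brain Ribo-seq libraries, where Grin2a had 423 to 1850, so the split of RPFs between Grin2a and its copy is uncertain.

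In WT brain RNA, levels per length spanned about an order of magnitude. Grin1, the obligatory subunit of NMDA receptors, had 24.0 ± 4.32 CPM per kb of transcript (SD, n = 3), and Gria1 had 20.5 ± 0.796. These 2 overlapped, and both lay above Gria2, the subunit whose edited form keeps calcium out of AMPA receptors, at 14.1 ± 1.63. Grik5, a kainate subunit that needs a partner such as Grik2 to form a channel, was next at 13.4 ± 0.556 and overlapped Gria2. Gria3 (10.0 ± 1.25) and Gria4 (8.59 ± 0.958) followed and overlapped each other. The lowest were Grin2a at 2.94 ± 0.273, Grin2b at 2.11 ± 0.218 and Grik2 at 1.85 ± 0.168 CPM per kb, of which only the last pair overlapped. This order comes in part from the division by transcript length, which ran from 3763 nt (Grik5) to 24060 nt (Grin2b). In plain CPM, Gria3 (52.1), Grin2b (50.7), Grik5 (50.5), Gria4 (46.7) and Grin2a (43.0) lay close together in WT brain RNA. RNA reads fell unevenly along some of these transcripts (below), so ranks by level per kb are uncertain.

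RPFs gave another order. Per kb of coding sequence, Grin1 (87.4 ± 7.90 CPM, SD, n = 3) and Gria2 (75.6 ± 6.39) were highest and overlapped, followed by Gria1 (42.5 ± 6.18) and Gria3 (33.4 ± 3.79), which also overlapped. Gria4 stood at 20.9 ± 4.92, Grin2b at 13.9 ± 0.799 and Grin2a at 11.4 ± 0.946, each apart from its neighbours. Grik2 (7.77 ± 1.83) and Grik5 (6.98 ± 0.569) were lowest and overlapped. Grik5 thus ranked 4 of 9 in RNA and last in RPFs. On the log2 scale, its RPF level per kb of coding sequence minus its RNA level per kb of transcript was -0.95 in WT, the only negative value among the 9, with the other members between 1.05 (Gria1) and 2.72 (Grin2b). These values and the RNA order depend on the transcript taken. On the shortest transcript with an equally long protein, chosen after seeing the data, the same quantity was 5.89 for Grin2a (1.96 on the longest), 3.92 for Grin2b and 3.19 for Gria3 (1.73 on the longest), while Grik5 has the same transcript under both choices and remained the only negative value. Grik5 (minus strand of chromosome 7, 25009849 to 25072346) also had the coding sequence richest in G and C, at 61.7% against 44.7% to 55.6% in the others. Whether G and C content or transcript length bears on its RNA and RPF levels was not tested.

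**Figure D1:**
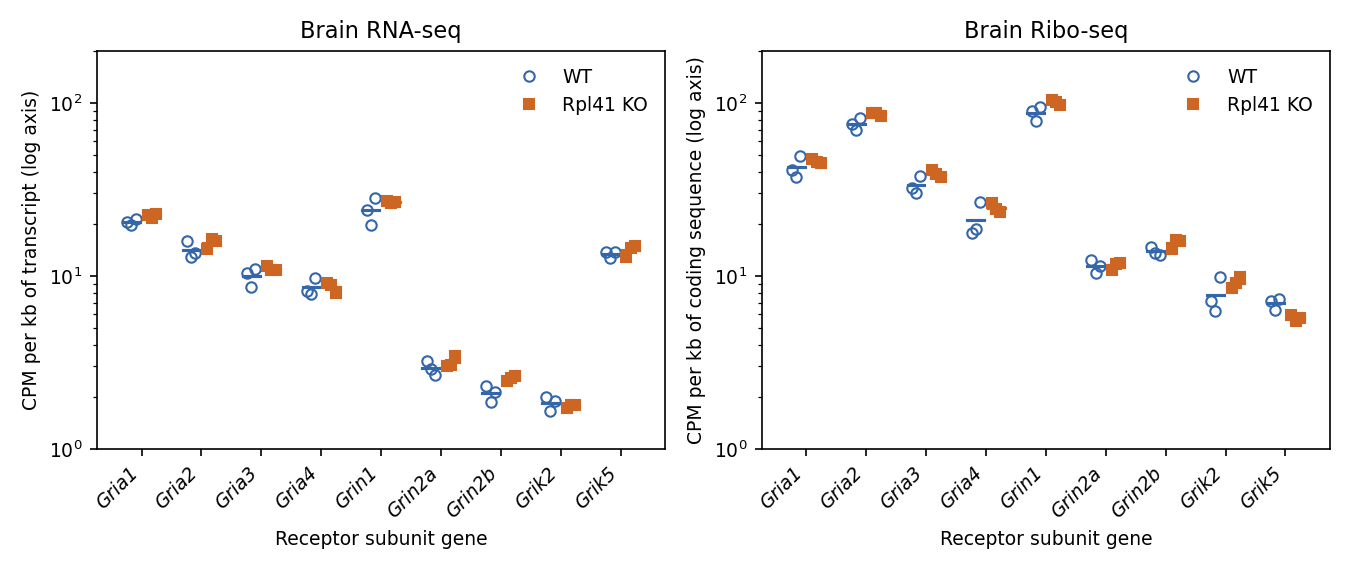
Level of each subunit gene in every brain library, as CPM per kb of transcript for RNA (left) and CPM per kb of coding sequence for RPFs (right), both on log axes. Circles are WT and squares Rpl41 KO libraries, horizontal lines are group means (n = 3), and Grik5 moves from the upper group in RNA to the bottom in RPFs.

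The first comparison asked whether subunit mRNAs differed in the brain without RPL41. None of the 9 members was called by the quasi-likelihood test of edgeR, with p-values adjusted by Benjamini-Hochberg across every transcript tested (threshold 0.05), where 12 of 89237 transcripts (0.0134%) were. DESeq2 called 0 members as well, and 1 member, Grin2b, had an unadjusted p under 0.05, against 3.46% of transcripts. The log2 fold changes of KO over WT ran from -0.07 (Grik2) to 0.28 (Grin2b), with a median of 0.12, and 8 of 9 were positive. Over all 15731 genes tested (1 transcript per gene) the median was 0.10, the middle 50% ran from -0.04 to 0.21, and 68.9% were positive. The 95% confidence intervals of the 9 members reached from 0.801-fold to 1.46-fold, which is the range of differences these libraries leave possible.

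Among AMPA subunits, Gria1 RNA was 114, 109 and 118 CPM in WT and 125, 120 and 127 CPM in KO libraries. All 3 KO values lay above the WT values, but by little, and the log2 fold change of 0.12 ± 0.11 (± gives the standard error for fold changes) had an adjusted p of 0.898 in edgeR's test. Gria2 RNA was 165, 133 and 140 CPM in WT and 148, 170 and 166 CPM in KO libraries, so that the groups overlapped, with a log2 fold change of 0.14 ± 0.13. Gria3 and Gria4 gave log2 fold changes of 0.14 and 0.01, also with overlapping libraries.

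Of the NMDA subunits, Grin2b, the partner of Grin1 that prevails early in development, had the largest RNA difference of the 9 members. Its RNA was 55.4, 45.0 and 51.6 CPM in WT and 59.4, 61.9 and 63.5 CPM in KO libraries. The KO values all lay above the WT values, and the log2 fold change was 0.28 ± 0.12 (unadjusted p = 0.0407, adjusted p = 0.898 in edgeR's test). Grin1 (102.8 ± 18.5 CPM in WT and 114.3 ± 1.08 CPM in KO, SD, n = 3) and Grin2a (43.0 ± 4.00 and 46.4 ± 3.44 CPM) overlapped between genotypes. The kainate subunits did as well, with log2 fold changes of -0.07 for Grik2 and 0.07 for Grik5. Both genes with all KO libraries above all WT libraries, Gria1 and Grin2b, stand beside 5.08% of transcripts with that pattern, and no member had the opposite one, which 4.43% of transcripts had.

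RPFs were compared next. Again 0 of 9 members were called by edgeR's quasi-likelihood test, as were 28 of 81112 transcripts (0.0345%). DESeq2 called 0 members, and 1 member, Grik5, had an unadjusted p under 0.05, against 12.6% of transcripts. The values nevertheless sat on one side. Of the 9 log2 fold changes 8 were positive, with a median of 0.18 and a range from -0.29 to 0.23, where the median of the 14465 genes tested was -0.03, their middle 50% ran from -0.19 to 0.14, and 45.5% were positive. With each library left out in turn, the members' median stayed between 0.13 and 0.25. The genes compared were not matched to the members for protein length. Most members also moved together between libraries (below), so the 9 values are not independent. Intervals for the members reached from 0.694-fold to 1.46-fold.

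Gria2 RPFs were 200, 184 and 218 CPM in WT and 231, 230 and 223 CPM in KO libraries. The KO libraries all lay above the WT libraries, with a log2 fold change of 0.18 ± 0.10 (adjusted p = 0.481 in edgeR's test). Grin1 RPFs showed the same arrangement, at 257, 227 and 271 CPM in WT and 299, 292 and 281 CPM in KO libraries, with a log2 fold change of 0.21 ± 0.11 (adjusted p = 0.441). Across brain transcripts 9.4% had all KO libraries above all WT libraries. Gria3 (0.22), Gria4 (0.23) and Grik2 (0.22) had log2 fold changes of similar size, but 1 WT library of each, replicate 3, lay within or above the KO range. Gria1 (0.11), Grin2b (0.16) and Grin2a (0.02) were smaller and overlapped.

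Grik5 went the other way. Its RPFs were 21.2, 18.6 and 21.7 CPM in WT and 17.5, 16.2 and 16.8 CPM in KO libraries, from 172 to 484 reads and 308 to 579 reads. All KO libraries lay below all WT libraries, a pattern of 8.7% of transcripts. The log2 fold change was -0.29 ± 0.11 (unadjusted p = 0.0184) and did not pass the threshold (adjusted p = 0.313 in edgeR's test). With each library left out in turn it stayed between -0.35 and -0.25.

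**Figure D2:**
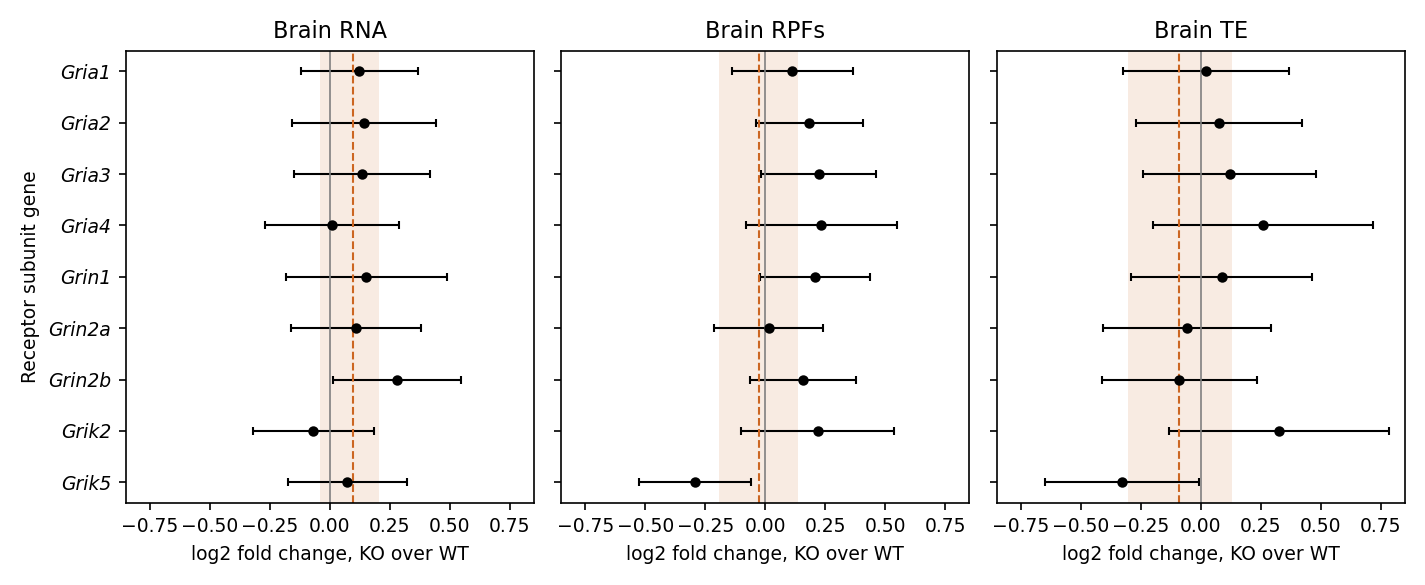
Log2 fold change of Rpl41 KO over WT for each subunit gene in brain RNA, RPFs and TE (x axis), with bars for the 95% confidence interval from edgeR (n = 3 libraries per genotype and assay). The dashed line is the median of all genes tested and the shaded band their middle 50%, and Grik5 is the lone member left of 0 in RPFs, at -0.29.

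For TE, tested as the assay by genotype term over the 12 brain libraries, 0 of 9 members and 0 of 98861 transcripts (0%) were called by edgeR's quasi-likelihood test, and DESeq2 called 0 members. The study, using another model (RiboDiff), reports that TE of many brain transcripts changed significantly. It also reports higher RPFs and TE in brain for transcripts that encode the longest proteins. Why the counts of transcripts called differ was not tested. The member values had a median of 0.08 (log2) against -0.09 over 16721 genes, whose middle 50% ran from -0.30 to 0.13. Grik5 was the 1 member with an unadjusted p under 0.05, which 4.73% of transcripts had. Its TE differed by -0.33 ± 0.15 (unadjusted p = 0.0462, adjusted p = 0.895), and its relation of RPF to RNA CPM moved from -1.30 in WT to -1.65 in KO on the log2 scale. Grik2, its channel partner, had the largest value in the other direction at 0.33 ± 0.21 (adjusted p = 0.895). The members' TE intervals reached from 0.638-fold to 1.72-fold. In simulated data of this size, 49% of the transcripts changed by 2 on the log2 scale were recovered for TE. Those transcripts were drawn at random from all tested, whatever their counts, so the share does not measure power for the members.

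Because subunits are used in combination, 4 ratios were taken within each library, which removes library scaling, as log2 of counts per kb (transcript length for RNA, coding length for RPFs). Grik5 over Grik2 differed most. In RPFs it was 0.0056, 0.0044 and -0.41 in WT and -0.52, -0.72 and -0.78 in KO libraries, a difference of KO minus WT of -0.54. The KO libraries all lay below the WT libraries, and the two-sided exact permutation test gave p = 0.1, the smallest that 3 against 3 libraries allow, or 0.4 after Benjamini-Hochberg adjustment over 8 ratio tests. The same ratio in RNA was 2.86 ± 0.0804 in WT and 2.99 ± 0.0801 in KO (SD, n = 3; exact permutation p = 0.2, adjusted 0.4).

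Grin2a over Grin2b, the pair that exchanges during postnatal maturation, was lower in KO libraries by a smaller amount. In RPFs it was -0.26, -0.39 and -0.21 in WT and -0.40, -0.45 and -0.41 in KO libraries, without overlap (difference -0.14, exact permutation p = 0.1, adjusted 0.4). The Grin2a RPFs in this ratio carry the uncertain split with Gm7328 given above. How often ratios of other genes separate the genotypes this way was not examined. In RNA the difference was -0.17 and the libraries overlapped (exact permutation p = 0.2, adjusted 0.4). Gria1 over Gria2 differed by -0.02 in RNA and -0.06 in RPFs, and Grin1 over the sum of Grin2a and Grin2b by -0.02 and 0.12, all with overlapping libraries and exact permutation p of 0.3 or more.

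**Figure D3:**
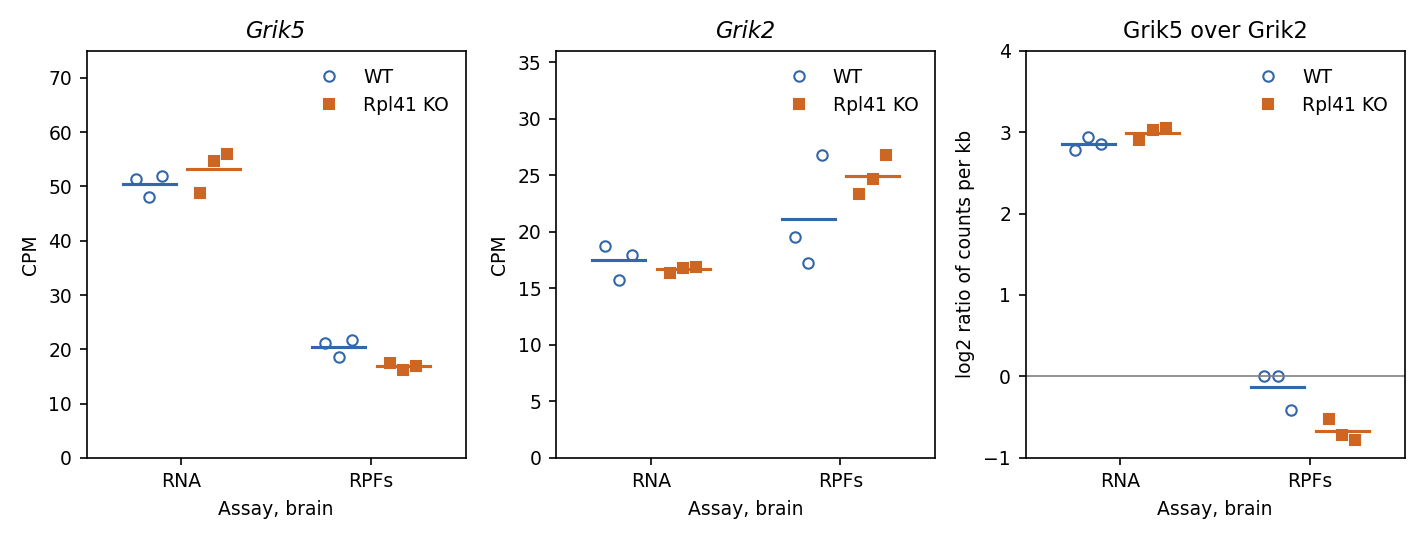
Grik5 and Grik2 in every brain library as CPM (left and middle, y axes from 0), and the log2 ratio of Grik5 to Grik2 in counts per kb (right). Circles are WT, squares Rpl41 KO, and lines group means (n = 3). The KO libraries lie below the WT libraries in Grik5 RPFs and in the RPF ratio, with a mean difference of -0.54 in the latter.

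Reads of the 2 assays came from different parts of the same transcripts. For 5 members the annotation also holds a shorter transcript with an equally long protein and a 3′ UTR shorter by 1000 nt or more, so the share of reads that also fall on it tells where the reads lie. In brain RPFs this share was 93.4% to 100.8% (it can pass 100% because the shorter transcript is not wholly contained in the longer one). In RNA it was 57.2% to 65.1% for Gria2, 70.3% to 76.8% for Grik2, 10.9% to 27.5% for Gria3, 8.61% to 22.0% for Grin2b and 1.21% to 3.58% for Grin2a, whose 3′ UTR has 9932 nt. For Grin2a this meant 50 to 147 reads out of 3507 to 5815 per RNA-seq library, so the RNA values of Gria3, Grin2a and Grin2b are largely counts of their 3′ UTRs.

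The RNA share also differed between libraries of a group. Gria3 had 14.1%, 16.1% and 27.5% in WT replicates 1 to 3 and 26.1%, 11.2% and 10.9% in KO replicates 1 to 3. WT replicate 3 and KO replicate 1 were thus the highest for Gria3, and they were for Grin2a as well. Gria2 and Grik2 were highest in WT replicate 3 (65.1% and 76.8%), but KO replicate 1 (61.1% and 72.3%) lay among the other libraries. For Grin1, a 527-nt partial transcript at its 3′ side took 26.8% of the Grin1 reads in WT replicate 3 and 27.5% in KO replicate 1, but 31.6% to 38.8% in the others. Grin2b ran opposite to Gria3, with 9.62% in WT replicate 3 and 8.61% in KO replicate 1 against 15.0% to 22.0%. Its shorter transcript has a 3′ UTR of 2275 nt, and the part of this in the pattern was not tested. The share was also taken over 128 other genes under a stricter rule. Their shorter transcript encoded an equally long protein, had at most 200 nt of UTR and was shorter by 1000 nt or more. Gria2, Grin2b and Grik2 would not meet it. The median share was 24.4%, 26.7% and 35.6% in WT and 32.3%, 21.4% and 21.3% in KO RNA-seq libraries, so the same pair of libraries was highest there. In Ribo-seq it was 96.9% to 97.8%.

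**Figure D4:**
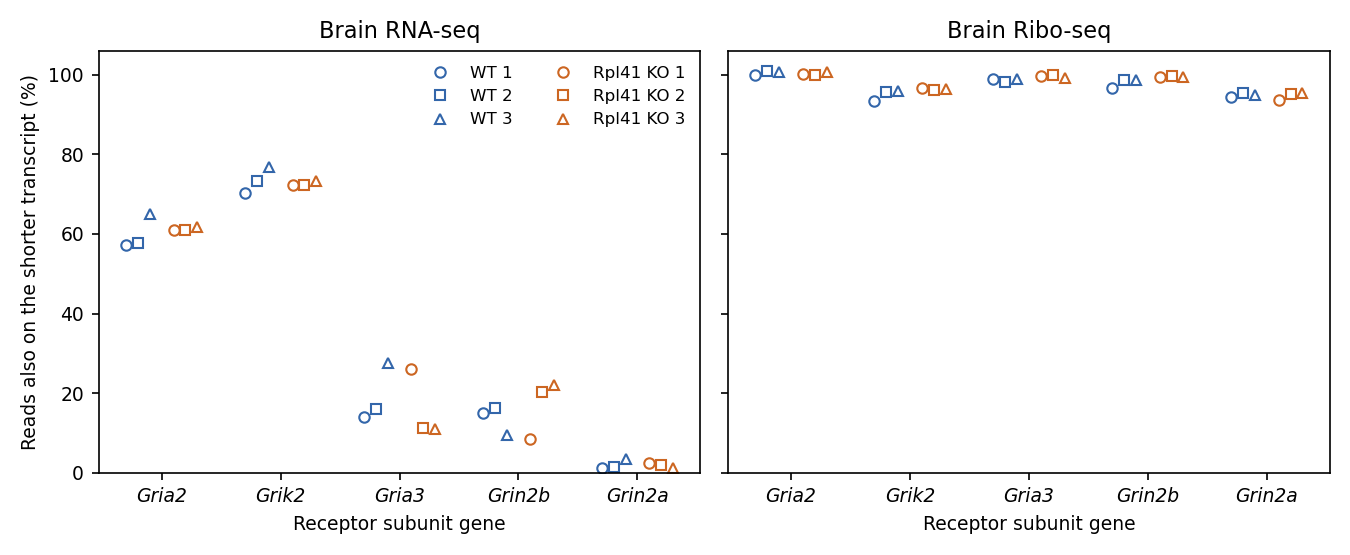
Share of each gene's reads that also fall on the shorter transcript with an equally long protein, in every brain library (y axis, percent), for RNA-seq (left) and Ribo-seq (right). Symbols mark replicates 1 to 3 and colours the genotype. RPFs lie at 93.4% or more, while RNA reads lie mostly in the longer 3′ UTR for Gria3, Grin2b and Grin2a.

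Several fold changes differed under other choices of transcript or libraries, and the cause was not tested. Counted on the shorter transcript, an alternative chosen after seeing the data, the RNA log2 fold change of Gria3 turned from 0.14 to -0.13 ± 0.42, that of Grin2b went from 0.28 to 0.61 ± 0.36, and the TE of Grin2b went from -0.09 to -0.39, with none of the 9 members called. Without WT replicate 3 and KO replicate 1 of RNA-seq, likewise chosen after seeing the data, Grin2b RNA passed the threshold (0.32, adjusted p = 0.0481 in edgeR's test), 1 of 9 members where 10.5% of transcripts did. Grik5 TE was then -0.43 (adjusted p = 0.138). Grik5 has 1 long-protein transcript with a 3′ UTR of 523 nt, so its values were the same under both choices of transcript.

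Cell type markers give the makeup of the lysates, in which fewer neurons and less RNA per neuron cannot be told apart. The neuron markers summed to 1298 to 1599 CPM in WT and 1559 to 1819 CPM in KO brain RNA-seq, overlapping, and to 1353 to 1722 and 1438 to 1532 CPM in RPFs. Astrocyte markers (5 genes, of which Slc1a3 is also in the transporter list below) were 305 to 322 CPM in WT and 361 to 379 CPM in KO RNA-seq, and microglia markers (5 genes) 59.2 to 63.7 and 67.4 to 71.1 CPM, both without overlap, but both overlapped in RPFs. Oligodendrocyte markers overlapped. All 4 endothelial markers (Pecam1, Cldn5, Cdh5 and Flt1) had negative log2 fold changes in both assays, with medians of -0.68 in RNA and -0.74 in RPFs. They summed to 20.35 to 33.08 CPM in WT and 12.75 to 20.37 CPM in KO RNA-seq, and to 29.4 to 48.8 and 22.3 to 33.8 CPM in RPFs. At an unadjusted p under 0.05 in edgeR's test stood 3 of the 4 in RNA, against 3.46% of transcripts. In RPFs all 4 did, against 12.6%. None of these genes was called, none of the brain lists had a marker at 0, and their part in the receptor values was not tested.

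Kidney served as the background tissue. All 9 members were called higher in WT brain than in WT kidney by edgeR's quasi-likelihood test in both assays, as were 35.8% of transcripts in each. For the 6 members in RNA and 5 in RPFs with too few kidney reads to be tested within kidney, this call was fixed by the filter, which they passed through brain alone, so their values are a description. For the 3 others in RNA, the adjusted p was 1.26e-06 (Gria3), 2.73e-08 (Gria4) and 3.18e-07 (Grik5). Grin2a and Grin2b had 0 reads in all 3 WT kidney RNA-seq libraries, which against a floor of 3 counts per library makes their WT brain RNA at least 706-fold and at least 835-fold higher. Gria2 had 2 reads over the 3 WT kidney RNA-seq libraries, Grik2 3, Gria1 7 and Grin1 11. The AMPA subunits Gria3 and Gria4 and the kainate subunit Grik5 were present in kidney. Pooled over libraries on totals without TMM, brain RNA exceeded kidney RNA 13.7-fold for Gria3 (95% interval 12.6 to 14.9), 57.5-fold for Gria4 (48.1 to 69.4) and 8.90-fold for Grik5 (8.30 to 9.55). These exact binomial intervals cover counting error only. With TMM and the spread between libraries, edgeR gave 11.45-fold (95% interval 7.60 to 17.3) for Gria3, 48.0-fold (32.9 to 70.1) for Gria4 and 7.46-fold (5.63 to 9.88) for Grik5.

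**Figure D5:**
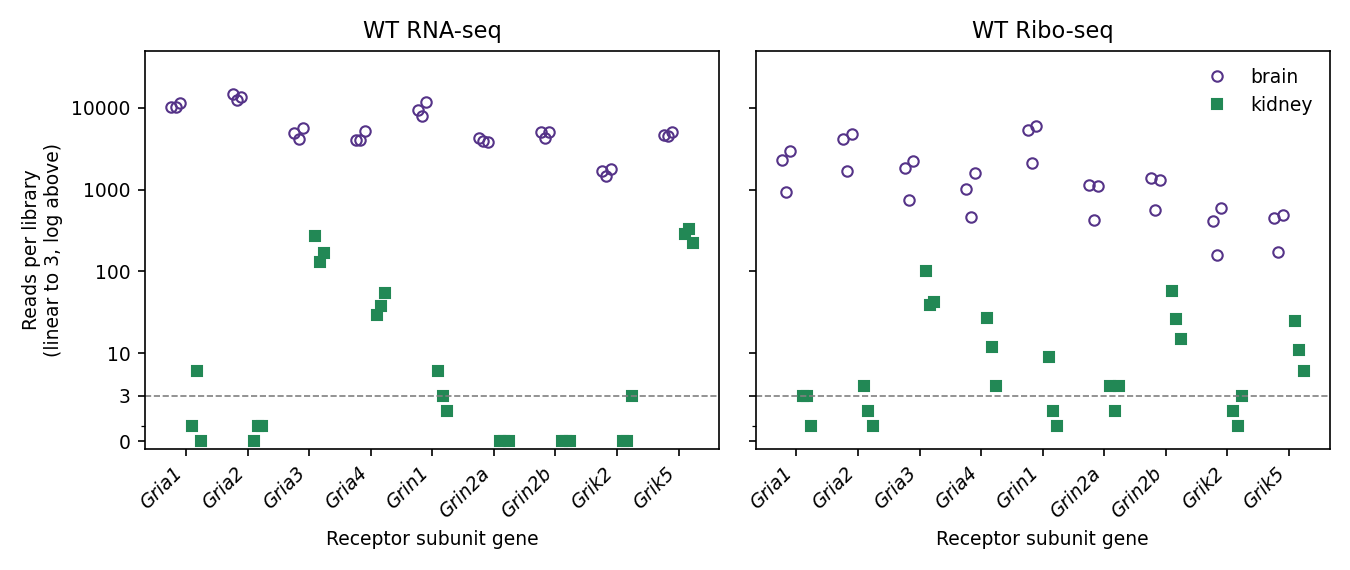
Reads per library for each subunit gene in WT brain (circles) and WT kidney (squares), in RNA-seq (left) and Ribo-seq (right), with the y axis linear up to the floor of 3 counts (dashed) and logarithmic above. Gria3, Gria4 and Grik5 stand above the floor in every kidney library of both assays, and Grin2b does so in every kidney Ribo-seq library.

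In kidney, too few reads left 6 members untested in RNA and 5 in RPFs, so the counts that follow cover only the members that passed the filter on low counts. Of the 3 tested in RNA (Gria3, Gria4 and Grik5) 0 were called by edgeR's quasi-likelihood test, where 0.00992% of transcripts were, and 0 by DESeq2. None had an unadjusted p under 0.05, as 16.8% of transcripts did. Grik5 RNA was 5.58, 6.31 and 4.62 CPM in WT and 6.80, 9.85 and 6.78 CPM in KO kidney, with no overlap, and a log2 fold change of 0.50 ± 0.22 (adjusted p = 0.299). Gria3 RPFs were 3.69, 2.62 and 3.09 CPM in WT and 3.95, 4.24 and 3.98 CPM in KO kidney, also without overlap, with a log2 fold change of 0.35 ± 0.16 (adjusted p = 0.196). For scale, 10.1% of kidney transcripts in RNA and 15.5% in RPFs had all KO libraries above all WT libraries.

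Of the 4 members tested in kidney RPFs, Grin2b was called, as were 7.76% of transcripts, and it was lower in KO, as were 3.01%. At an unadjusted p under 0.05 were 2 of the 4 (Grin2b and Gria3), against 25.3% of transcripts, and 14.3% had all KO libraries below all WT libraries, as Grin2b did. It rested on few reads, with 57, 26 and 15 in WT and 5, 35 and 28 in KO libraries, or 2.08, 1.75 and 1.10 CPM and 0.494, 0.816 and 0.724 CPM. The log2 fold change was -1.22 ± 0.28 (adjusted p = 0.0229 in edgeR's test). Grin2b RNA was at 0 reads in all 6 kidney RNA-seq libraries, and of the kidney RPFs 12, 14 and 2 in WT and 2, 17 and 2 in KO libraries lay on the shorter transcript, the rest in parts of the longest transcript outside it. The call was lost without any of 4 single libraries (WT replicate 1, WT replicate 2, KO replicate 2 or KO replicate 3, with values of -0.97, -1.20, -1.36 and -1.21), with a replicate block (-1.14, adjusted p = 0.0504) and with counts per gene (-1.14, adjusted p = 0.0738).

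Genes that work with the receptors were examined as lists in the brain. Of the other 9 ionotropic subunits, 17 auxiliary and assembly proteins, 9 anchoring and trafficking proteins, 8 metabotropic glutamate receptors, 8 glutamate transporters and metabolic enzymes, 3 RNA editing enzymes and 13 GABA-A receptor subunits, 0 genes were called in either direction in RNA, RPFs or TE by edgeR's test. All of them passed the filter on low counts except 1 metabotropic receptor in RNA. At an unadjusted p under 0.05 in RPFs stood 1 other ionotropic subunit, 3 auxiliary, 2 anchoring, 1 metabotropic and 2 transporter or metabolism genes, and 0 editing enzymes and GABA-A subunits, where 12.6% of all transcripts did. In RPFs the 9 members had a median log2 fold change of 0.18, the other ionotropic subunits 0.07, the anchoring and trafficking proteins 0.17 and the GABA-A subunits 0.06. The auxiliary and assembly proteins stood lower, at -0.15 with 1 of 17 above 0. In TE they had a median of -0.22 with 2 of 17 above 0, where the median over genes was -0.09.

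The most abundant partners show the sizes involved. Dlg4, the postsynaptic scaffold PSD-95, had log2 fold changes of 0.12 in RNA and -0.23 in RPFs (adjusted p = 0.410). Nsf, an ATPase that also binds AMPA receptors, had 0.24 and 0.21. Of the auxiliary proteins of AMPA receptors, Cnih2 had 0.01 and -0.34 (adjusted p = 0.393) and Cacng7 had -0.15 and -0.40 (adjusted p = 0.253). For Glul, the glutamine synthetase of astrocytes, RPFs had a log2 fold change of -0.0002, and for Slc17a7, a vesicular glutamate transporter, -0.28 (adjusted p = 0.322). Grin2c and Grid1, the most abundant of the other ionotropic subunits, had RPF log2 fold changes of -0.15 and -0.03. Grm4, a metabotropic receptor, had -0.12, and the editing enzymes Adar and Adarb1 had 0.14 and -0.08.

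Most members, but not Grin2a or Grik5, also moved together from library to library. Whether this exceeds what other sets of genes show in these libraries was not tested. With levels centred within each assay, the mean of the 9 members was lowest in WT replicate 2 in both assays, at -0.19 (log2) in RNA and -0.21 in RPFs, and in KO libraries it lay between 0.03 and 0.08 in RNA and between 0.06 and 0.07 in RPFs. Without WT replicate 2 the median RNA log2 fold change of the members went from 0.12 to 0.04. Over the 12 brain libraries, Pearson's r of each member with the mean of the other 8 was 0.89 for Gria1, 0.90 for Gria3, 0.83 for Grin1, 0.82 for Gria2, 0.70 for Grik2, 0.60 for Gria4, 0.51 for Grin2b and 0.33 for Grin2a. Grik5 stood apart at -0.07. Of 12078 genes, those whose pattern was most like the members' mean were Itih3 (r = 0.97), Vcam1 (0.97) and Klk6 (0.96), a description of libraries that share normalization and depth.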

How the data were processed

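RNA-seq and Ribo-seq of mouse brain and kidney were used, in 30 of the 74 samples' columns (6 kidney disome-seq libraries among them). The 44 samples of HEK293T cells, a human embryonic kidney line, were not analysed here, and 28 columns of the human table were not used because no HEK293T sample could be tied to them. According to the methods, poly(A) RNA-seq libraries were strand-specific, reads of rRNA were removed, the rest were aligned with STAR to GRCm38 with multimapping reads kept, and featureCounts was applied. The authors deposited raw counts per GENCODE transcript, which sum to 1187636 to 123745890 per library. Of 142604 transcripts 141374 were matched to the annotation. Counting error is small for the brain members and large in kidney.

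The counts were tested with edgeR 4.0.16 in R 4.3.3 (quasi-likelihood F-test, filterByExpr with a minimum count of 10, TMM scaling, Benjamini-Hochberg adjustment over all transcripts tested, threshold 0.05), each comparison fitted on its own groups. TE was the assay by genotype interaction. CPM are counts per 1e6 of the TMM-scaled library total. Standard errors were derived from the log2 fold change and F, intervals are 95%, and 3 counts were taken as the floor. Ratios used an exact permutation test in scipy 1.17.1 with a pseudocount of 0.5. The fit was tried on simulated data with 200 transcripts, drawn at random from all tested, changed by 2 on the log2 scale. It recovered 72% in brain RNA (89237 transcripts), 92% in brain RPFs (81112) and 49% in brain TE (98861).

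The text names the 9 members, Rpl41, the 2 genes of highest brain RNA level per kb in each of 7 partner lists plus any called there, the markers, and the 3 genes most like the members. Some items that this rule names, and 1 sequence, are not reported here. The members and lists were chosen with earlier results of these data known. Alternatives were DESeq2 1.42.0, library totals without TMM, no filter, counts per gene, a replicate block and leaving out each library. The shorter transcript and leaving out 2 RNA-seq libraries were added after seeing the data.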

Additional observations from a re-analysis of the deposited data

Results flagged for a closer look

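Kidney disome-seq, which sequences fragments protected by a pair of stacked ribosomes, entered no comparison. Gria3 had 2 to 26 reads in the WT and 14 to 33 in the KO disome-seq libraries of kidney. Grik5 had 9 to 18 and 6 to 12 reads. Gria4 had 0 to 3 reads in the WT and 1 to 5 in the KO libraries. These 3 genes are listed because their highest library in a group passed the floor of 3 counts, and they are also the 3 members tested in kidney RNA. The other members had 3 reads or fewer in each library.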

How the results depend on the processing

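The numbers of members called in brain RNA, RPFs and TE and in kidney RNA were the same under every alternative run, except that 1 member (Grin2b) was called in brain RNA without the 2 RNA-seq libraries of least 3′ weight. In kidney RPFs 0 members were called with counts per gene or with the replicate block, and 0 to 1 with each library left out. Grin2b kidney RPFs gave no value on the shorter transcript, and DESeq2 gave no adjusted p for it. Small log2 fold changes reversed. In brain RNA, these were Gria3 on the shorter transcript (-0.13) and with counts per gene (-0.0082), Gria4 (-0.071 without TMM, -0.061 per gene) and Grik5 (-0.0091 without TMM, -0.012 per gene). Without TMM, Grin2a RPFs gave -0.0084. In TE, Grin2a gave 0.028 on the shorter transcript, Gria1 -0.015 in DESeq2, and Gria1 -0.016 and Grin1 -0.055 without the 2 libraries. Kidney Gria3 RNA gave -0.32 on the shorter transcript and -0.099 per gene, and Gria1 over Gria2 in RNA 0.030 per gene. The cause was not tested.

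With each library left out, the ranges that crossed 0 were -0.049 to 0.10 (Gria4) and -0.14 to 0.0016 (Grik2) in brain RNA, -0.038 to 0.075 (Grin2a) in brain RPFs, and -0.069 to 0.17 (Gria1), -0.021 to 0.16 (Gria2), -0.041 to 0.19 (Grin1) and -0.13 to 0.011 (Grin2a) in TE. They were -0.42 to 0.079 for Gria4 kidney RNA, -0.12 to 0.58 for Gria4 kidney RPFs, and, for RNA ratios, -0.11 to 0.038 (Gria1 over Gria2) and -0.11 to 0.14 (Grin1 over Grin2a and Grin2b).

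Counts of transcripts called moved more. Brain RNA gave 12, but 23 in DESeq2, 5 per gene and 9281 without the 2 libraries. Brain RPFs gave 28, but 388 in DESeq2, 1573 without a filter, 0 per gene and 80 with the replicate block. TE gave 0, but 18 in DESeq2, 5 without a filter, 1 per gene and 1652 without the 2 libraries. Kidney RNA gave 7, but 465 in DESeq2 and 1 per gene, and kidney RPFs 5838, but 3497 in DESeq2, 9936 without a filter and 786 per gene. With single libraries left out they ran from 7 to 12466 in kidney RNA and from 285 to 5843 in kidney RPFs. Leaving out TMM moved the median over transcripts from -0.03 to -0.19 in kidney RNA and from 0.20 to 0.45 between tissues in RNA.

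Within an assay, WT and KO libraries of equal replicate number shared no deviation that held in every pair. Correlations were -0.42 to 0.45 in brain RNA and -0.13 to 0.083 in brain RPFs, and equal numbers were not taken as pairs. Whether a number marks the same animal in RNA-seq and Ribo-seq was not tested. Under the replicate block, Grik5 in the brain was -0.28 in RPFs (adjusted p = 0.562) and -0.32 in TE (adjusted p = 0.900). In simulated data of this size, 49% of randomly drawn transcripts changed by 2 (log2) were recovered in brain TE, a share not specific to the members. Kidney depth left most members untested.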
